A study of Mus musculus with 12 samples.

Results

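The heat shock proteins and the co-chaperones that work with them were followed in RNA sequencing of mouse hearts. The gene group was picked for study with earlier results of these data known; within it, members follow from gene names and no measured value: protein-coding genes of the Hspa, Hspb, Hspd, Hspe, Hsph, Hsp90, Dnaja, Dnajb, Dnajc and numbered Bag families, together with Hsf1, Hsf2 and Cryab and without the endoplasmic reticulum genes Hspa5, Hsp90b1 and Dnajb9. That gave 80 genes. Of these, 71 had values in the files of all 12 libraries, among 12866 genes so listed, and 69 passed the limit on low values (1 FPKM or more in 4 or more libraries) and entered the test, among 11509 genes. FPKM is the number of fragments per kilobase of transcript, scaled to the depth of the library, so it is a level per length, and levels of different genes can be set side by side. Dnajb3, Dnajb7, Dnajb8, Dnajb13, Dnajc5b, Dnajc5g, Dnajc6, Dnajc22 and Hspbap1 were not listed for all 12 libraries, and Dnajc5 and Hspb9 stayed under the limit on low values.

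Hearts came from wild-type mice of strain C57BL/6, with 4 libraries in each of 3 groups. LPS+XJDHT mice received lipopolysaccharide (LPS) at 10 mg/kg and XJDHT at 50 mg/kg per day, LPS mice received LPS at 10 mg/kg and saline in place of XJDHT, and Control mice received saline for both, in each case over 3 days. LPS is the endotoxin of Gram-negative bacteria, and XJDHT stands for Xijiao Dihuang decoction, which is made from herbs in the Chinese tradition. The series' title names cardiac dysfunction induced by sepsis as its subject. The sources used here give neither age nor sex, and the labels name each mouse by a number but do not say how the mice were kept or processed together.

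Heat shock proteins bind unfolded or damaged proteins and keep them from clumping. HSP70 proteins work in a cycle driven by ATP: J proteins (the Dnaj genes) bring them a client, and nucleotide exchange factors of the HSP110 and BAG families let it go. Small heat shock proteins hold unfolding clients without ATP, and in heart muscle they sit on the sarcomere and the desmin network. HSP90 proteins finish folding kinases and hormone receptors, and the HSP60 and HSP10 pair (Hspd1 and Hspe1) folds proteins inside mitochondria. The transcription factor HSF1 switches many of these genes on together when proteins unfold, through a heat shock element made of inverted GAA triplets in their promoters.

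Depth was inferred and not measured. The constant per library described below, searched for within a limited range, was even, at 73.9 to 77.8 M fragments. The labelled tissue, heart, was checked against cardiomyocyte genes: 7 of 7 markers were listed, and their summed level lay between 5406 and 8042 FPKM in LPS+XJDHT libraries, between 6074 and 7876 FPKM in LPS libraries and between 14079 and 15832 FPKM in Control libraries. After LPS 4 of these 7 markers fell, 4 of 4 listed neutrophil markers rose (a sum of 72.2 to 148 FPKM in LPS+XJDHT libraries, 75.6 to 114 FPKM in LPS libraries and 0.937 to 2.68 FPKM in Control libraries, with Ly6g not listed), and 3 of 4 fibroblast markers rose. Erythroid genes fell in 3 of 5 cases, and smooth muscle and pericyte genes in 2 of 5. Macrophage genes rose in 1 of 5, and endothelial genes in 0 of 5. With each library divided by its median ratio to the mean library (the median-ratio scale below), 1 macrophage gene was higher and 2 were lower. Of all tested genes 26.6% were higher and 12% lower after LPS, or 18.6% and 18.4% on that scale. In such bulk tissue fewer cells of a type and less RNA per cell cannot be told apart, and the part of these shifts in the values below was not tested. Small intestine markers summed to 0.257 to 1.13 FPKM in LPS+XJDHT libraries, 9.87 to 14.4 FPKM in LPS libraries and 0.539 to 1.58 FPKM in Control libraries, so all 4 LPS libraries stood apart there. Testis markers, a list that includes the member Hspa1l, summed to 3.82 to 4.31 FPKM in LPS+XJDHT libraries, 7.36 to 15.4 FPKM in LPS libraries and 8.04 to 12.2 FPKM in Control libraries, so all 4 LPS+XJDHT libraries were lowest there, and Ldhc was lower than in LPS libraries (limma). The part of either list in the values below was not tested. Replicate 2 of LPS+XJDHT had 0.205 FPKM summed over 4 Y-linked genes, against 20.4 to 61.9 FPKM in the other 11 libraries, and counts of members are given without it below.

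The promoters of several members carry heat shock elements, shown here because they are the sequence through which HSF1 is known to act on many heat shock genes. The 250 bases before each RefSeq start of build GRCm38.p6 were searched on both strands for the element of 2 inverted repeats (GAANNTTC or TTCNNGAA) and for the longer one of 3 repeats, in which GAANNTTC is followed by NNGAA, or TTCNNGAA by NNTTC. Every longer element therefore contains a shorter one. Of 63 members found in the promoter table, 3 held the longer element, which is 4.76% against 0.514% of all 27025 genes there. The shorter one stood before 14 members, which is 22.2% against 14.5%. Hspe1 and Hspd1 lie head to head and share one stretch, chr1:55088053-55088082, read here on the plus strand with its overlapping elements in capitals, and Dnajb6 holds the third long element at chr5:29735843-29735872 on the plus strand.
Hspe1 and Hspd1: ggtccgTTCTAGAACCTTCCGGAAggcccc
Dnajb6: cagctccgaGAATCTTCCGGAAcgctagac
Hspb1, the member that rose most after LPS, had 2 copies of the shorter element in chr5:135887777-135887854 on the plus strand, between 89 and 117 bases before its start.
Hspb1: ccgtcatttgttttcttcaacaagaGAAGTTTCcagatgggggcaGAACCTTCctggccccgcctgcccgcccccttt
Hsph1, the member that fell most, had 1 copy in chr5:149636351-149636380 on the minus strand; like those of Hspe1 and Dnajb6, this stretch overlaps an annotated exon.
Hsph1: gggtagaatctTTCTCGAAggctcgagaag
The stress-inducible twins Hspa1a (chr17:34972228-34972285, minus strand) and Hspa1b (chr17:34959310-34959367, minus strand) share the same 58 bases around theirs.
Hspa1a and Hspa1b: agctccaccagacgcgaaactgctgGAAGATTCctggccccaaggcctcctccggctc
Among tested members with a promoter in the table, the shorter element stood before 4 of 12 that rose after LPS, 4 of 8 that fell and 6 of 35 that did not pass, so it was found on both sides. A match is a description of the letters and not of binding.

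After LPS, members of the family went in both directions, as did genes at large. The small heat shock proteins Hspb1, Hspb7 and Hspb2, the aggregation suppressor Dnajb6 and the autophagy co-chaperone Bag3 rose, while the HSP70 exchange factors Hsph1 and Hspa4l, the mitochondrial co-chaperonin Hspe1 and the J proteins Dnaja3 and Dnaja4 fell. The classic inducible HSP70 genes Hspa1a and Hspa1b and both cytosolic HSP90 genes did not pass. Against Control, 14 of the 69 tested members rose, 9 fell and 46 did not pass (limma on log2(FPKM + 1), adjusted p below 0.05 over all tested genes). That is 33.3% of members against 38.6% of all genes tested, with 20.3% against 26.6% higher and 13.0% against 12% lower. The libraries of both groups did not overlap for 23 members, 33.3% against 37.4% of all genes. The shares were thus near or below those of all genes, and the members' median log2 fold change was 0.00 against 0.16 over all tested genes. Both medians depend on the scale. Dividing each library by its median ratio to the mean library moved the median of all tested genes by -0.15, to 0.01, and gave the members a median of -0.18. On that scale 8 members were higher and 16 lower (18.6% and 18.4% of all genes). The 8 were among the 14 and included Hspb1, Hspb2, Hspb7 and Dnajb6 but not Bag3, and the 16 held all 9 that fell. Without Control replicate 1, which is singled out below, the counts were 14 and 9, and without LPS+XJDHT replicate 2 they were 14 and 10.

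**Figure D1:**
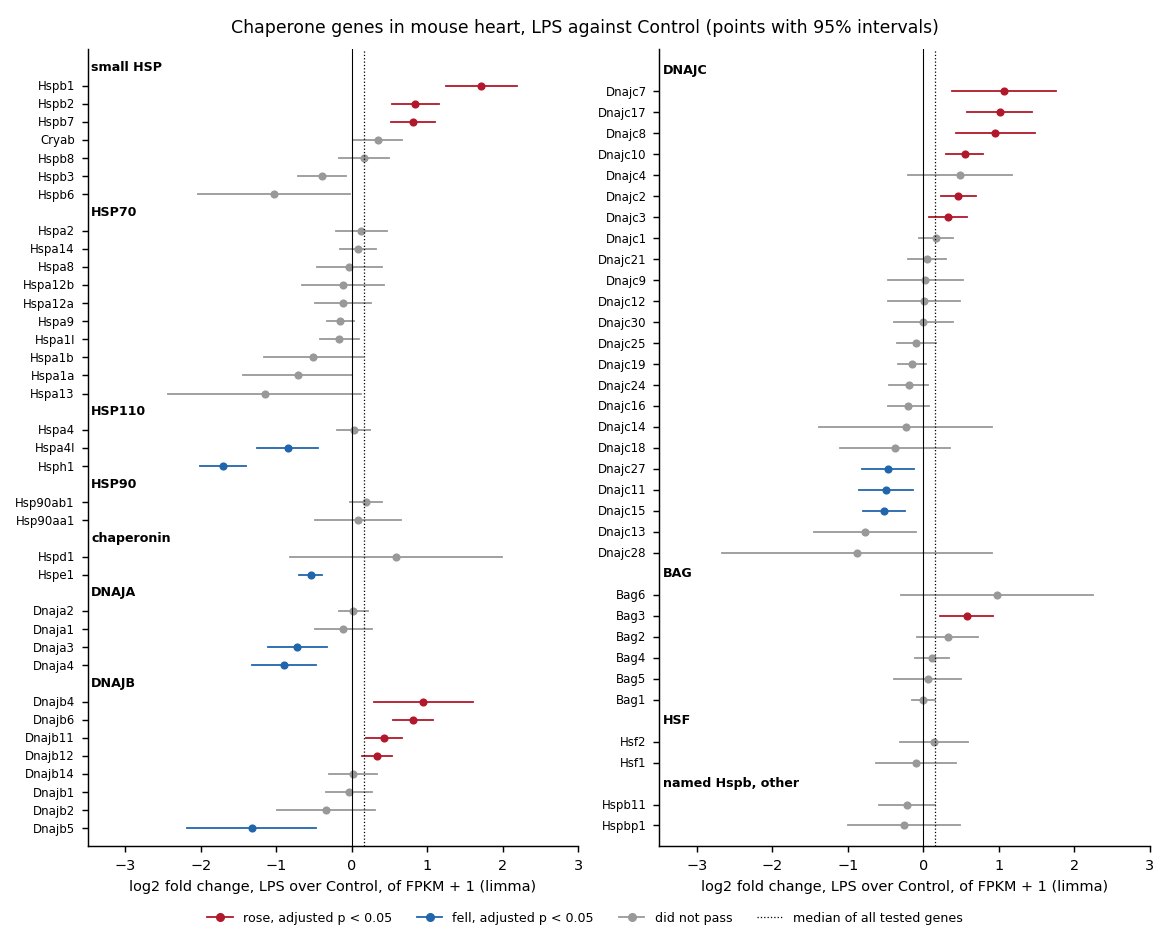
Log2 fold change of FPKM + 1, LPS over Control, for the 69 tested members by class, with limma's 95% intervals; the dotted line is the median of all tested genes. Red members rose, blue members fell and grey members did not pass; small heat shock proteins reach furthest right with Hspb1 at 1.72, and Hsph1 lies furthest left at -1.71.

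The small heat shock proteins held the highest levels of the family and its largest increase. Hspb1 (HSP27, a stress-induced holdase that also guards actin filaments; chr5:135887919-135889563 in GRCm38) had 398, 351, 334 and 449 FPKM in LPS+XJDHT hearts, 531, 662, 337 and 384 FPKM in LPS hearts, and 191, 118, 117 and 144 FPKM in Control hearts. Every LPS library lay above every Control library, and the 4 LPS libraries themselves spread widely, from 337 to 662 FPKM. The log2 fold change of LPS over Control was 1.72 ± 0.22 (SE; limma, adjusted p = 0.0001).

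Hspb7 (cvHSP, a cardiovascular small heat shock protein needed for sarcomere upkeep) was the most abundant member, with 819, 1032, 766 and 896 FPKM in LPS+XJDHT hearts, 876, 1139.8, 782 and 742 FPKM in LPS hearts, and 475, 445, 539 and 532 FPKM in Control hearts. LPS and Control did not overlap, and the log2 fold change was 0.81 ± 0.14 (limma, adjusted p = 0.00071). Hspb2 (MKBP, which binds the myotonic dystrophy protein kinase) had 77.2, 85.3, 58.9 and 66.9 FPKM in LPS+XJDHT hearts, 64.9, 95.3, 65.8 and 64.0 FPKM in LPS hearts, and 39.2, 40.2, 37.5 and 40.9 FPKM in Control hearts. Its Control libraries sat within a narrow band below all LPS libraries, and the log2 fold change was 0.84 ± 0.14 (limma, adjusted p = 0.00074).

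The other 4 tested small heat shock proteins did not pass. Cryab (αB-crystallin, the desmin chaperone whose mutation causes a desmin-related cardiomyopathy) had 465, 593, 368 and 563 FPKM in LPS+XJDHT hearts, 498, 696, 500.3 and 551 FPKM in LPS hearts, and 461, 407, 441 and 440.5 FPKM in Control hearts. LPS and Control did not overlap, yet the log2 fold change was 0.35 ± 0.15 with adjusted p = 0.085 (limma), and it passed in 3 of the alternatives. Hspb8 (HSP22, the partner of Bag3) averaged 213 ± 51.0 FPKM in LPS hearts and 186 ± 11.0 FPKM in Control hearts (SD, n = 4 each; log2 fold change 0.17, limma adjusted p = 0.42). Hspb6 (HSP20, a phosphorylated small heat shock protein of muscle) had 189, 72.8, 172 and 159.5 FPKM in LPS hearts and 114, 352, 402 and 409 FPKM in Control hearts. Control replicate 1 lay among the LPS libraries while the other 3 lay far above, and the log2 fold change was -1.03 ± 0.46 (limma, adjusted p = 0.098). Without that library it was -1.47 with adjusted p = 0.013. Hspb3 (a partner of Hspb2) averaged 4.49 ± 0.875 FPKM in LPS hearts and 6.15 ± 0.318 FPKM in Control hearts (adjusted p = 0.052, limma), and it was lower on the median-ratio scale. Summed over the class, the level lay between 2042 and 2579 FPKM in LPS+XJDHT libraries, between 2038 and 2956 FPKM in LPS libraries and between 1489 and 1757 FPKM in Control libraries. The cardiomyocyte marker sum given above ran the other way, with all 8 LPS and LPS+XJDHT libraries below all 4 Control libraries. Any link between these sums was not tested.

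**Figure D2:**
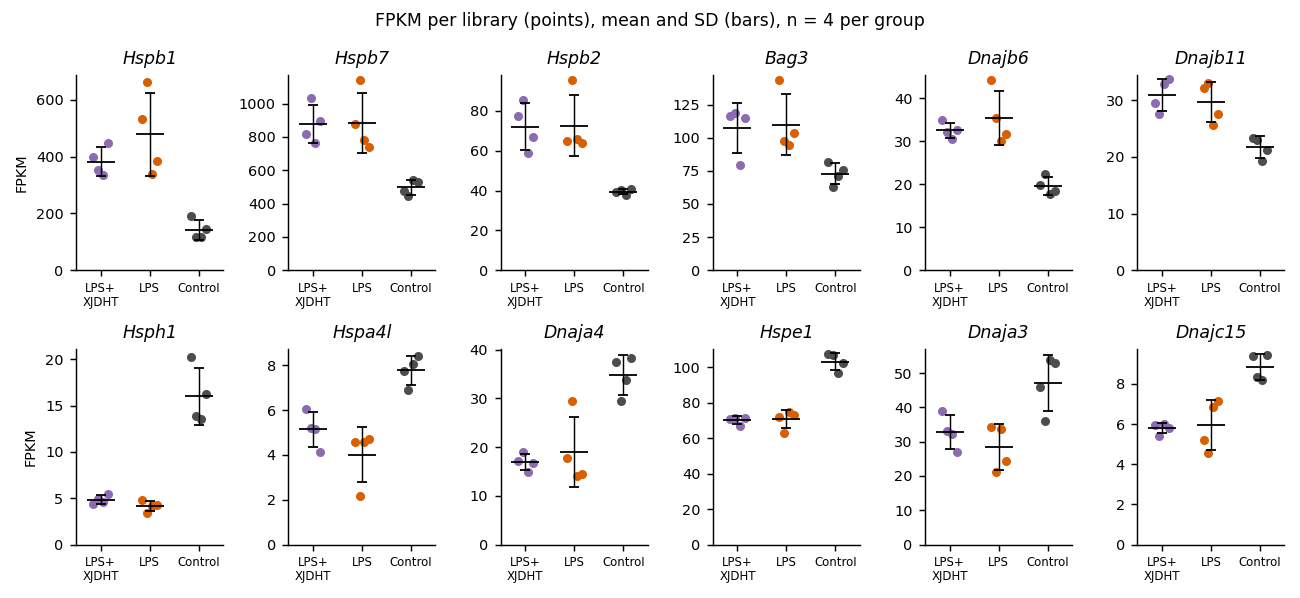
FPKM in each library (points) with mean and SD (bars, n = 4 per group) for 12 members, LPS+XJDHT, LPS and Control from left to right. The upper row shows members that rose after LPS and the lower row members that fell; in each panel LPS+XJDHT libraries overlap LPS libraries.

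Of the 10 tested HSP70 genes, Hspa9 and Hspa1l were lower on the median-ratio scale, where 18.4% of all tested genes were lower. None of the 10 passed in either direction in the main fit, against 38.6% of all tested genes. Hspa8 (HSC70, the constitutive form) was the most abundant of them at 408 ± 104 FPKM in LPS hearts and 415 ± 88.0 FPKM in Control hearts (SD, n = 4 each; log2 fold change -0.03, limma adjusted p = 0.91). Hspa9 (mortalin, the HSP70 of mitochondria) averaged 181 ± 9.19 FPKM in LPS hearts and 201 ± 9.62 FPKM in Control hearts (log2 fold change -0.15, limma adjusted p = 0.16). The stress-inducible twins were low. Hspa1a had 1.82, 2.20, 2.34 and 1.74 FPKM in LPS+XJDHT hearts, 2.04, 2.32, 1.64 and 2.10 FPKM in LPS hearts, and 10.7, 3.02, 1.91 and 3.40 FPKM in Control hearts. Hspa1b had 1.99, 1.61, 2.64 and 2.13 FPKM in LPS+XJDHT hearts, 2.04, 2.67, 1.73 and 2.28 FPKM in LPS hearts, and 8.30, 3.04, 1.71 and 3.00 FPKM in Control hearts. For both, 1 Control library stood above all others, the groups overlapped, and the log2 fold changes of LPS over Control were -0.71 ± 0.33 and -0.51 ± 0.30 (limma, adjusted p = 0.11 and 0.21). Without Control replicate 1 they were -0.30 and -0.16 (adjusted p = 0.18 and 0.55), and without Control replicate 3 the value of Hspa1a was -0.97 (adjusted p = 0.035). The twins share 1350 windows of 100 bases, 47.1% of those of Hspa1a and 49.9% of those of Hspa1b, so their split is uncertain.

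That Control library also ranked highest among Control libraries for other genes of the heat shock response. Of 15 tested members on a list of textbook HSF1 targets, Control replicate 1 was the highest of the 4 Control libraries for 12: Hspa1a, Hspa1b, Hspa8, Hsph1, Hsp90aa1, Hsp90ab1, Hspb1, Cryab, Hspd1, Hspe1, Dnaja1 and Bag3. The same library was the highest for 22 of all 69 members and for 19.4% of all tested genes. For Hspe1 the margin over Control replicate 2 was small, 107.2 against 106.9 FPKM. The count of 12 is of ranks and includes Hspa1a and Hspa1b, by which Control replicate 1 was picked. Without this library the log2 fold change of LPS over Control was 1.87 for Hspb1, 0.63 for Bag3 and 0.37 for Cryab. These positive values are larger than with it, since leaving out the highest Control library lowers the Control mean. For the same reason the decreases of Hsph1 and Hspe1 are smaller without it, as given above for Hspa1a and Hspa1b. What set this library apart was not tested.

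**Figure D3:**
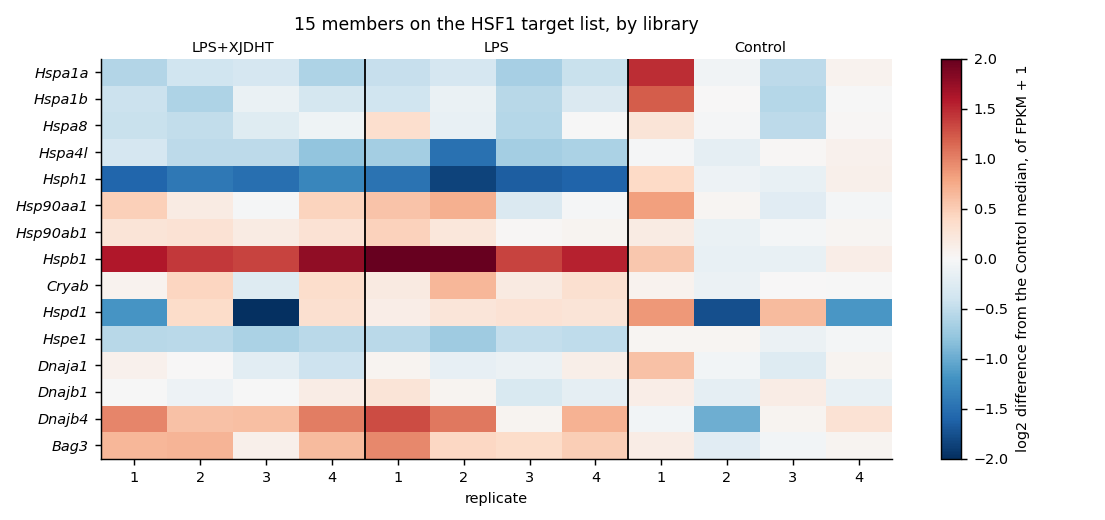
Difference from the Control median on the log2(FPKM + 1) scale (colour, limited to 2 either way) for the 15 tested members on the HSF1 target list, in 12 libraries. In LPS+XJDHT and LPS libraries Hspb1 is red throughout, Dnajb4 and Bag3 are red in most, and Hsph1, Hspe1 and Hspa4l are blue. Control replicate 1 is reddest for Hspa1a, Hspa1b, Hspd1 and Hsp90aa1.

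The HSP110 genes, exchange factors for HSP70, held the strongest decrease. Hsph1 (HSP105) had 4.34, 4.96, 4.63 and 5.50 FPKM in LPS+XJDHT hearts, 4.80, 3.44, 4.14 and 4.31 FPKM in LPS hearts, and 20.3, 13.9, 13.5 and 16.2 FPKM in Control hearts. The groups were far apart, with no Control library below 13.5 FPKM, and the log2 fold change was -1.71 ± 0.14 (limma, adjusted p = 4.8e-06). Hspa4l (APG-1) had 4.57, 2.17, 4.57 and 4.72 FPKM in LPS hearts and 7.75, 6.88, 8.04 and 8.41 FPKM in Control hearts, without overlap (log2 fold change -0.85 ± 0.19, limma adjusted p = 0.0038). The third of the class, Hspa4 (APG-2), averaged 36.4 ± 4.51 FPKM in LPS hearts and 35.5 ± 1.96 FPKM in Control hearts (log2 fold change 0.03, limma adjusted p = 0.85). It was the most abundant of the 3 in every group.

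The cytosolic HSP90 genes did not pass. Hsp90ab1 (the constitutive form) averaged 473 ± 68.7 FPKM in LPS hearts and 413 ± 35.6 FPKM in Control hearts, and Hsp90aa1 (the inducible form) averaged 47.1 ± 15.4 FPKM in LPS hearts and 44.3 ± 16.2 FPKM in Control hearts (SD, n = 4 each; limma, adjusted p = 0.15 and 0.82). In level per length the constitutive form exceeded the inducible one in every library.

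Members of the mitochondrion moved down or did not pass. Of 8 tested genes assigned to that compartment, 4 fell and 0 rose, against 4 that rose and 0 that fell among 7 of the endoplasmic reticulum; compartments were assigned with results known, and on the median-ratio scale the counts were 6 lower and 0 higher for mitochondria and 1 higher and 0 lower for the reticulum. Of all tested genes 26.6% were higher and 12% lower, and on the median-ratio scale 18.6% and 18.4%. The counts depend on the assignment: Dnajc14, Dnajc16 and Dnajc18, which could also be placed in the reticulum, were left out of it. None of them was called, and on the median-ratio scale Dnajc16 was lower (log2 fold change -0.37, limma adjusted p = 0.019). With so few genes in each compartment these counts are a description. Hspe1 (HSP10, the lid of the mitochondrial chaperonin) had 70.7, 71.4, 66.9 and 71.4 FPKM in LPS+XJDHT hearts, 71.7, 63.2, 74.6 and 73.0 FPKM in LPS hearts, and 107, 107, 96.8 and 102 FPKM in Control hearts. LPS and Control were well separated and the spread was small, with a log2 fold change of -0.54 ± 0.07 (limma, adjusted p = 0.00014). Its partner Hspd1 (HSP60) varied more, with 32.9, 97.4, 16.7 and 94.6 FPKM in LPS+XJDHT hearts, 83.1, 89.5, 92.7 and 90.6 FPKM in LPS hearts, and 139, 21.5, 118 and 33.1 FPKM in Control hearts. Its Control and LPS+XJDHT libraries fell into a high and a low pair, and the log2 fold change of 0.59 had an interval from -0.82 to 2.00 (limma, adjusted p = 0.51). Dnaja3 (TID1, the J protein partner of mortalin) averaged 28.4 ± 6.65 FPKM in LPS hearts and 47.1 ± 8.23 FPKM in Control hearts (log2 fold change -0.72, limma adjusted p = 0.0082). Dnajc15 (MCJ, a J protein of the inner membrane known as a brake on respiratory complex I) averaged 5.94 ± 1.25 FPKM in LPS hearts and 8.84 ± 0.660 FPKM in Control hearts (log2 fold change -0.52, limma adjusted p = 0.0077). Dnajc11, which is linked to cristae organization, averaged 8.73 ± 1.82 FPKM in LPS hearts and 12.5 ± 0.736 FPKM in Control hearts (log2 fold change -0.49, limma adjusted p = 0.032) and lost its call without any of 5 single libraries, with adjusted p up to 0.083.

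In the endoplasmic reticulum the 4 that rose were Dnajc10, Dnajb11, Dnajb12 and Dnajc3. Dnajc10 (ERdj5, a reductase that unlinks misfolded proteins for degradation) had 17.0, 15.5, 17.9 and 20.5 FPKM in LPS hearts and 12.4, 13.2, 9.95 and 11.7 FPKM in Control hearts, without overlap (log2 fold change 0.55 ± 0.11, limma adjusted p = 0.0026). Dnajb11 (ERdj3, a soluble partner of BiP) averaged 29.6 ± 3.53 FPKM in LPS hearts and 21.7 ± 1.92 FPKM in Control hearts (log2 fold change 0.43, limma adjusted p = 0.0082), and Dnajb12 averaged 12.1 ± 0.636 FPKM in LPS hearts and 9.35 ± 0.739 FPKM in Control hearts (log2 fold change 0.34, limma adjusted p = 0.012). Both lost their calls under median-ratio scaling. Dnajc3 (p58IPK, an inhibitor of the PERK kinase) had a log2 fold change of 0.33 (limma, adjusted p = 0.042) that did not pass in 12 of the alternatives.

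Among J proteins of the cytosol and nucleus, Dnajb6, a strong suppressor of aggregation that in muscle works with Bag3, had 34.9, 32.2, 30.6 and 32.5 FPKM in LPS+XJDHT hearts, 44.2, 35.5, 30.1 and 31.7 FPKM in LPS hearts, and 19.9, 22.3, 17.6 and 18.4 FPKM in Control hearts. All LPS libraries were above all Control libraries (log2 fold change 0.81 ± 0.12, limma adjusted p = 0.00031). Dnajb4 (HLJ1) had 51.6, 43.0, 21.1 and 33.5 FPKM in LPS hearts and 19.4, 9.77, 21.2 and 25.1 FPKM in Control hearts; the groups overlapped through LPS replicate 3. Its log2 fold change of 0.95 ± 0.30 (limma, adjusted p = 0.026) fell short in 6 of the alternatives, with adjusted p of 0.064 without Control replicate 2, 0.077 without LPS replicate 1 and 0.066 without LPS replicate 2. Dnajc8, Dnajc17, Dnajc2 and Dnajc7 also rose, with log2 fold changes of 0.95, 1.01, 0.46 and 1.07 (limma, adjusted p = 0.0083, 0.0019, 0.0052 and 0.019). For Dnajc7, LPS and Control overlapped through LPS replicate 2, and 18.9% of its transcript Dnajc7-201 lies in exons of Cnp and Nkiras2. Dnajc8 and Dnajc17 are tied to splicing and Dnajc2 to the ribosome, and Dnajc7 binds both HSP70 and HSP90; the call of Dnajc2 was lost under median-ratio scaling, and that of Dnajc7 without Control replicate 3 or LPS replicate 4.

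On the falling side stood Dnaja4, Dnajb5 and Dnajc27. Dnaja4, a J protein of the HSP40 type induced by heat, had 17.2, 19.0, 14.98 and 16.8 FPKM in LPS+XJDHT hearts, 17.8, 29.46, 14.1 and 14.6 FPKM in LPS hearts, and 37.5, 29.47, 33.8 and 38.3 FPKM in Control hearts. LPS replicate 2 came within reach of the lowest Control library, but no values crossed (log2 fold change -0.89 ± 0.20, limma adjusted p = 0.0038). Of its 3003 transcribed bases, 52.7% lie in exons of Wdr61 on the other strand. Whether counting used strand is not stated, so reads of Dnaja4 and Wdr61 cannot be told apart there. Dnajb5, known from the heart for holding histone deacetylase HDAC4 in a redox-controlled complex, had 3.36, 2.81, 3.82 and 4.09 FPKM in LPS+XJDHT hearts, 2.43, 9.50, 9.55 and 4.58 FPKM in LPS hearts, and 13.0, 13.3, 11.0 and 33.7 FPKM in Control hearts. LPS and Control did not overlap, though both groups spread widely (log2 fold change -1.33 ± 0.39, limma adjusted p = 0.019; 0.051 without LPS replicate 1). The low gene Dnajc27, at 1.63 ± 0.197 FPKM in LPS hearts and 2.67 ± 0.518 FPKM in Control hearts, had adjusted p = 0.032 (limma) and lost its call without any of 6 single libraries.

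The canonical partners of HSP70 in the cytosol did not pass. Dnaja1 averaged 27.0 ± 2.64 FPKM in LPS hearts and 29.8 ± 8.22 FPKM in Control hearts, and Dnajb1 (HSP40) averaged 7.17 ± 1.44 FPKM in LPS hearts and 7.31 ± 1.01 FPKM in Control hearts (SD, n = 4 each; limma, adjusted p = 0.65 and 0.87). Of all J proteins tested, 2 of 4 in the DNAJA class fell and 0 rose, 4 of 8 in DNAJB rose and 1 fell, and 6 of 23 in DNAJC rose and 3 fell. The DNAJC counts are close to the shares of all tested genes, 26.6% higher and 12% lower. On the median-ratio scale 4 DNAJC genes were higher and 7 lower, with Dnajc13, Dnajc16, Dnajc19 and Dnajc24 among the lower ones, and in DNAJB 1 was higher and 1 lower.

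In the BAG family 1 of 6 tested genes rose, against 26.6% of all tested genes. On the median-ratio scale 0 were higher, against 18.6% of all tested genes. Bag3, the stress-induced co-chaperone that joins HSP70 to Hspb8 and carries out selective autophagy of sarcomere proteins, had 116, 118, 79.3 and 115 FPKM in LPS+XJDHT hearts, 144, 97.8, 94.8 and 103 FPKM in LPS hearts, and 81.6, 62.8, 70.9 and 76.0 FPKM in Control hearts. All LPS libraries exceeded all Control libraries (log2 fold change 0.57 ± 0.16, limma adjusted p = 0.014). On the median-ratio scale the adjusted p was 0.062. Bag1 averaged 99.8 ± 5.88 FPKM in LPS hearts and 99.7 ± 3.86 FPKM in Control hearts, a log2 fold change with an interval from -0.15 to 0.15 (limma, adjusted p = 0.99).

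The heat shock factors themselves were low. Hsf1 averaged 5.28 ± 0.444 FPKM in LPS hearts and 6.01 ± 2.27 FPKM in Control hearts, and Hsf2 averaged 1.92 ± 0.307 FPKM in LPS hearts and 1.68 ± 0.515 FPKM in Control hearts (SD, n = 4 each; limma, adjusted p = 0.78 and 0.63). HSF1 is controlled mainly through its protein, so these levels say nothing of its activity. Of 23 tested genes on the list of textbook HSF1 targets, members and others, 4 rose (Hspb1, Zfand2a, Bag3 and Dnajb4) and 5 fell (Fkbp4, Hsph1, Hspe1, Hspa4l and Cacybp), with a median log2 fold change of -0.03; on the median-ratio scale 2 were higher and 6 lower. Over all tested genes the shares were 26.6% higher and 12% lower, or 18.6% and 18.4% on the median-ratio scale, and the median was 0.16.

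Co-chaperones and chaperonins outside the named families are given for context, and their counts are to be read beside the 26.6% of all tested genes that were higher and the 12% that were lower after LPS (18.6% and 18.4% on the median-ratio scale). Of 21 tested HSP70 and HSP90 co-chaperones, 7 fell and 1 rose (10 lower and 1 higher on the median-ratio scale). Fkbp4 (FKBP52, an immunophilin that works with HSP90 on steroid receptors) averaged 40.4 ± 6.61 FPKM in LPS hearts and 150.5 ± 2.02 FPKM in Control hearts (log2 fold change -1.89, limma adjusted p = 4.0e-07). Cdc37l1, a relative of the kinase co-chaperone CDC37, averaged 6.78 ± 2.02 FPKM in LPS hearts and 23.0 ± 6.11 FPKM in Control hearts (log2 fold change -1.62, limma adjusted p = 0.00017). The striated muscle co-chaperones Itgb1bp2 (melusin) and Unc45b (the myosin chaperone) fell by 1.05 and 0.77 on the log2 scale (limma, adjusted p = 0.00039 and 0.0006). The cardiomyocyte marker sum was lower in the same LPS libraries, as given above, and its part in these decreases was not tested.

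The cytosolic chaperonin TRiC, which folds actin and tubulin, went the other way. Of 14 tested genes of TRiC and its partner prefoldin, 10 rose and 0 fell (5 and 0 on the median-ratio scale). Cct2 averaged 85.3 ± 23.3 FPKM in LPS hearts and 15.8 ± 3.53 FPKM in Control hearts (log2 fold change 2.34, limma adjusted p = 6.4e-06), Cct5 averaged 82.1 ± 10.3 FPKM in LPS hearts and 49.1 ± 2.24 FPKM in Control hearts (0.72, limma adjusted p = 0.00016), and Cct3 averaged 82.7 ± 19.3 FPKM in LPS hearts and 41.5 ± 1.61 FPKM in Control hearts (0.95, limma adjusted p = 0.00059). Of 11 mitochondrial chaperones and proteases 3 rose, namely Yme1l1, Grpel1 and Afg3l2, and 0 fell, which on the median-ratio scale became 0 and 1. Among the 12 endoplasmic reticulum chaperones 1 rose, Pdia3 (log2 fold change 0.54, limma adjusted p = 0.0022), and 0 fell, against 1 and 3 on the median-ratio scale. In LPS+XJDHT hearts against Control, 9 chaperonin and prefoldin genes were higher and 0 lower, and among the co-chaperones 1 was higher and 6 lower (limma). Of the mitochondrial chaperones and proteases 3 were higher and 1 lower, and of the endoplasmic reticulum chaperones 3 were higher and 0 lower, against 28.5% higher and 10.7% lower of all tested genes. The lower mitochondrial gene was Lonp1, the main protease of the matrix, with 40.7, 4.69, 1.96 and 1.62 FPKM in LPS+XJDHT hearts, 36.8, 27.6, 35.7 and 31.1 FPKM in LPS hearts, and 32.2, 31.9, 35.1 and 35.5 FPKM in Control hearts. Replicate 1 of LPS+XJDHT lay above all Control libraries and the other 3 far below them, with a log2 fold change of LPS+XJDHT over Control of -2.40 ± 0.67 (limma, adjusted p = 0.015). The difference from LPS hearts, -2.36, did not pass (adjusted p = 0.86).

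Below the level of the gene, transcripts of some members differed in their fold changes. Whether transcripts of the same member differed from each other was not tested. Of 151 transcripts of members listed in all 12 files, 124 were tested in a fit over 18644 transcripts, which was added after the data were seen; 18 rose and 9 fell after LPS, against 17.3% and 8.26% of all transcripts. Cryab gave the clearest case. Its transcripts Cryab-202 and Cryab-206 begin inside the neighbouring gene Hspb2, which lies on the opposite strand, while Cryab-201, Cryab-203, Cryab-204 and Cryab-205 begin downstream of it. Those starting inside Hspb2 summed to 124, 81.2, 64.0 and 105 FPKM in LPS+XJDHT hearts, 175, 261, 48.7 and 114 FPKM in LPS hearts, and 9.95, 15.9, 21.4 and 6.24 FPKM in Control hearts. All LPS and LPS+XJDHT libraries lay above all Control libraries. As a share of Cryab FPKM that was 19.1% ± 5.42 in LPS+XJDHT hearts, 25.8% ± 13.0 in LPS hearts and 3.09% ± 1.58 in Control hearts (SD, n = 4 each).

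The downstream starts averaged 404 ± 97.4 FPKM in LPS+XJDHT hearts, 412 ± 59.4 FPKM in LPS hearts and 424 ± 25.7 FPKM in Control hearts, and these overlapped between groups. By transcript, Cryab-202 had a log2 fold change of LPS over Control of 3.33 ± 0.57 and Cryab-206 of 2.82 ± 0.78 (limma, adjusted p = 0.0017 and 0.022), against 0.06 for Cryab-201, the most abundant form (adjusted p = 0.82). The first exon of Cryab-202, chr9:50751877-50751947, is 71 bases long and lies in the intron of Hspb2-201, whereas the first exon of Cryab-206, chr9:50751325-50751576, lies within an exon of Hspb2. Because 252 of the 773 bases of Hspb2-201, 32.6%, are thus exonic on both strands and the use of strand is not stated, reads there cannot be assigned to Hspb2 or Cryab with certainty. How fragments were divided among overlapping transcripts is not given there either.

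**Figure D4:**
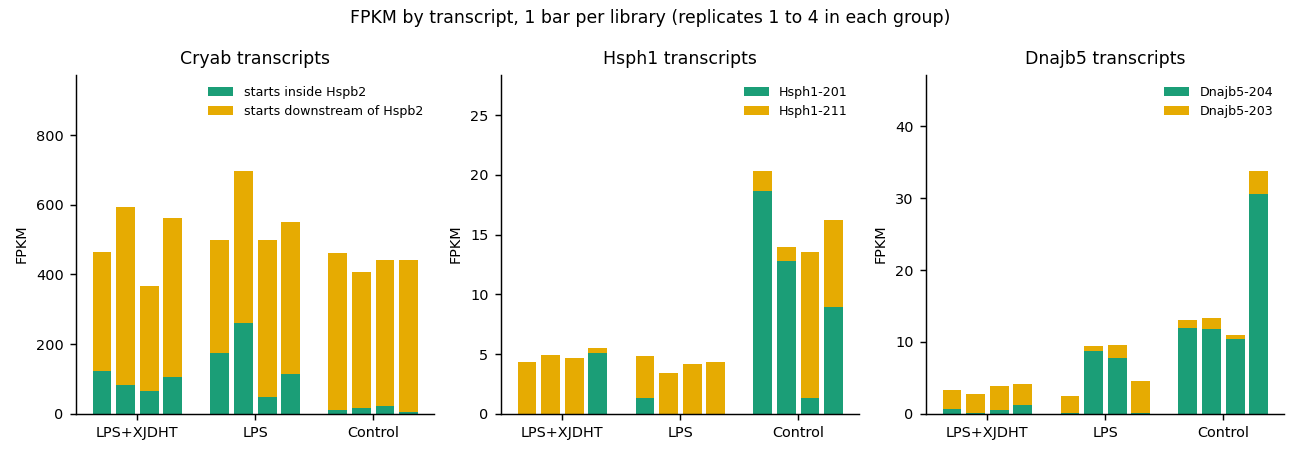
FPKM of transcripts stacked by library, 4 bars per group, for Cryab (by where transcripts start), Hsph1 and Dnajb5. The part of Cryab that starts inside Hspb2 stays at or below 21.4 FPKM in Control libraries and is at least 48.7 FPKM in LPS and LPS+XJDHT libraries; Hsph1-201 and Dnajb5-204 are tall in most Control libraries.

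The decreases of Hsph1 and Dnajb5 were likewise uneven among transcripts. Hsph1-201 averaged 0.321 ± 0.643 FPKM in LPS hearts and 10.4 ± 7.27 FPKM in Control hearts (log2 fold change -2.85, limma adjusted p = 0.015), whereas Hsph1-211 averaged 3.85 FPKM in LPS hearts and 5.57 FPKM in Control hearts (-0.04, adjusted p = 0.97). Control replicate 3 had 1.31 FPKM of Hsph1-201 and 12.2 FPKM of Hsph1-211, so the split between them differed among Control libraries. Dnajb5-204 averaged 4.17 ± 4.72 FPKM in LPS hearts and 16.2 ± 9.64 FPKM in Control hearts (log2 fold change -2.29, limma adjusted p = 0.037). For Hsf1, the transcript Hsf1-214 averaged 0.776 ± 0.433 FPKM in LPS hearts and 2.91 ± 1.35 FPKM in Control hearts (log2 fold change -1.09, limma adjusted p = 0.014), though the gene as a whole did not pass. Between LPS+XJDHT and LPS none of the 124 transcripts passed (limma), against 0.0107% of all transcripts higher and 0.0858% lower. Between LPS+XJDHT and Control 15 were higher and 8 lower, against 18.6% and 7.35% of all transcripts.

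LPS+XJDHT was compared with LPS to ask whether the decoction changes the hearts of mice given endotoxin. None of the 69 tested members passed in either direction (limma; smallest adjusted p = 0.96), against 0.113% of all genes, and 0 passed with limma-voom or in any other alternative. At an unadjusted p below 0.05 there were 3 members, Hspb11, Hspbp1 and Hsf2. Libraries did not overlap for 5 members, all of them higher in LPS+XJDHT, which is 7.25% against 2.82% of all genes: Bag4, Dnajc16, Dnajc24, Hspa12a and Hspb11. The median log2 fold change of members was 0.03, as it was over all genes.

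The intervals show what differences the data leave room for. Hspb1 had a log2 fold change of LPS+XJDHT over LPS of -0.28, with an interval from -0.75 to 0.19, Hspb7 of 0.00 (-0.30 to 0.30), Hsph1 of 0.18 (-0.12 to 0.48) and Hspe1 of -0.01 (-0.16 to 0.15). The intervals of these 4 all lie within a factor of 2 of the LPS level, and that of Hspe1 is the narrowest of them. For members with a wide spread the interval was broad: it ran from -2.29 to 0.53 for Hspd1 and from -0.08 to 1.93 for Hspb6, which had 167, 195, 365 and 424 FPKM in LPS+XJDHT hearts, against 189, 72.8, 172 and 159.5 FPKM in LPS hearts.

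The smallest p belonged to Hspb11 (IFT25, a ciliary transport protein that is a heat shock protein by name only). It had 3.55, 2.96, 3.88 and 3.83 FPKM in LPS+XJDHT hearts and 1.70, 1.70, 2.95 and 2.73 FPKM in LPS hearts, just without overlap (log2 fold change 0.49 ± 0.17; limma, adjusted p = 0.96). Hspbp1, an exchange factor of HSP70, had 3.51, 4.91, 0.739 and 1.59 FPKM in LPS+XJDHT hearts and 1.02, 0.466, 0.438 and 1.16 FPKM in LPS hearts, with overlap. Hsf2 had 4.55, 2.09, 2.42 and 3.67 FPKM in LPS+XJDHT hearts and 2.30, 1.95, 1.86 and 1.56 FPKM in LPS hearts, also with overlap. Dnajc16 averaged 6.04 ± 0.335 FPKM in LPS+XJDHT hearts and 4.92 ± 0.768 FPKM in LPS hearts, and Bag5 averaged 14.3 ± 1.18 FPKM in LPS+XJDHT hearts and 10.9 ± 3.96 FPKM in LPS hearts (SD, n = 4 each). For these 4 the adjusted p was 0.99 (limma).

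**Figure D5:**
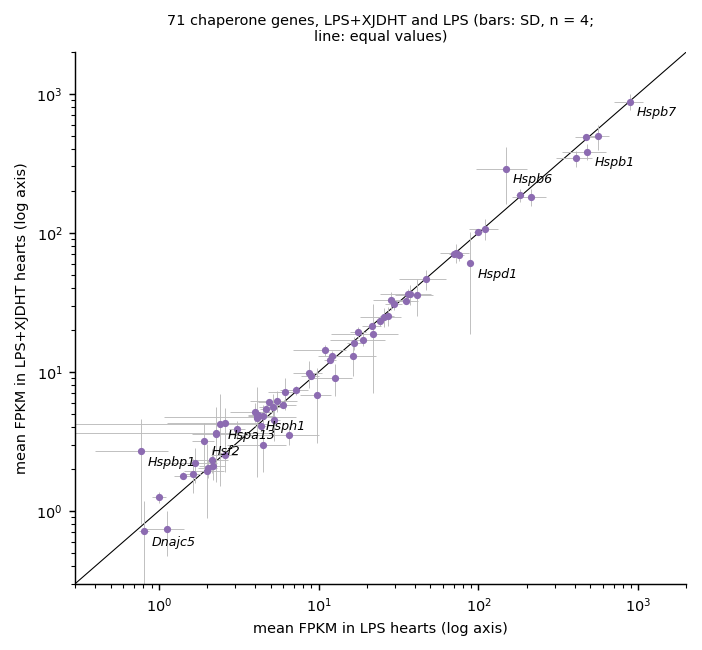
Mean FPKM in LPS+XJDHT hearts (vertical, log axis) against LPS hearts (horizontal, log axis) for the 71 listed members, with SD bars (n = 4) and the line of equal values. Abundant members such as Hspb7 lie close to the line, Hspb6 lies above it and Hspd1 below it, and bars are long for low members such as Hspbp1 and Hspa13.

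Against Control, LPS+XJDHT hearts had 16 members higher and 8 lower of 69 (limma), which is 23.2% against 28.5% of all genes and 11.6% against 10.7%, or 34.8% against 39.2% in either direction. Libraries did not overlap for 24 members (34.8% against 42.1%). On the median-ratio scale, which moved the median of all genes by -0.19 from 0.19, 6 were higher and 18 lower (17.1% and 17.8% of all genes); the 6 were Dnajb6, Dnajc10, Dnajc17, Hspb1, Hspb2 and Hspb7. Without LPS+XJDHT replicate 2 the counts were 15 and 8, without LPS+XJDHT replicate 1 they were 9 and 10, and without Control replicate 2 they were 10 and 8. The lower count was 5 without Control replicate 1, Control replicate 4, LPS+XJDHT replicate 3 or LPS+XJDHT replicate 4. This comparison shares its Control libraries with that of LPS and Control, so the values are given side by side and not as a second piece of evidence.

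Hspb1 averaged 383 ± 51.7 FPKM in LPS+XJDHT hearts and 143 ± 34.7 FPKM in Control hearts, a log2 fold change of 1.44 (limma, adjusted p = 0.00035) beside 1.72 for LPS over Control. For Hspb7 the fold changes over Control were 0.81 for LPS+XJDHT and 0.81 for LPS, for Hspb2 0.84 and 0.84, for Dnajb6 0.71 and 0.81, and for Bag3 0.54 and 0.57. Among members that fell, Hsph1 had -1.52 for LPS+XJDHT (limma, adjusted p = 1.2e-05) beside -1.71 for LPS, Hspe1 -0.55 beside -0.54, Dnaja4 -0.99 beside -0.89 and Dnajb5 -1.92 beside -1.33. Members called here and not in LPS against Control were Bag4, Dnajc1 and Hsf2 (higher, log2 fold changes of 0.33, 0.33 and 0.62) and Dnajc13 (lower, -0.84). The difference between LPS+XJDHT and LPS passed for none of these 4, and each lost its call in 4 or more of the alternatives, Dnajc13 in 15 of them. Bag3 and Hsf2 overlapped between LPS+XJDHT and Control, as did Dnaja3 and Dnajc13.

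Some members varied widely within groups. Besides Hspd1 and Hspb6, Hspa13 (an HSP70 of the microsomes) had 0.337, 6.61, 4.91 and 4.94 FPKM in LPS+XJDHT hearts, 0.362, 3.55, 5.24 and 0.508 FPKM in LPS hearts, and 5.66, 4.86, 4.74 and 5.39 FPKM in Control hearts. Dnajc28 had 4.59, 0.603, 4.82 and 4.45 FPKM in LPS+XJDHT hearts, 1.01, 1.04, 6.44 and 0.691 FPKM in LPS hearts, and 2.24, 0.0183, 9.85 and 15.3 FPKM in Control hearts. Apart from Hspa13 in Control hearts, values within single groups lay far apart. In LPS hearts replicate 3 was the highest for both genes, and whether replicates share a pattern was not tested. Another 10120 transcripts in the files carry no Ensembl identifier and are in no gene's sum; whether fragments went to them in some libraries was not tested. Of the 71 listed members, 24 share exonic bases with another gene, and among them Hspa1l shares 71.9% of its transcript with Gm10501.

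The 2 members under the limit on low values were not tested. Hspb9, a small heat shock protein known from testis, whose marker sum is given above, was between 0.442 and 1.01 FPKM in LPS+XJDHT hearts, between 0.852 and 1.53 FPKM in LPS hearts and between 0.0814 and 0.536 FPKM in Control hearts, so LPS and Control did not overlap at these low levels. Dnajc5 (cysteine string protein) was at 16.3 FPKM in Control replicate 2 and at or below 1.37 FPKM in the other 11 libraries.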

How the data were processed

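RNA depleted of ribosomal RNA was sequenced from 12 mouse hearts, 4 per group, with a NEBNext Ultra library kit, per the labels' protocols. The authors deposited 1 table of transcript levels per library. The unit was not named: the deposited values were taken as FPKM because value times transcript length gave whole multiples of 1 constant per library for 98.8% to 99.2% of values, within 0.1. The submitters' processing notes name mm10 and limma; they, the labels and the file headers name no aligner, quantifier or strand setting.

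Transcripts with an Ensembl identifier that were listed in all 12 files (24723) were summed per gene by the GRCm38 annotation; 10120 transcripts without an Ensembl identifier and 43 identifiers not in it were left out, and 0 sample columns were left unused. Genes that reached 1 FPKM in 4 or more libraries were fitted with limma 3.58.1 in R 4.3.3 (lmFit, eBayes with trend, 3 group means) on log2(FPKM + 1), which understates changes of low genes. Tests were two-sided, with Benjamini-Hochberg adjustment over all tested genes and a threshold of 0.05. The fit was tested on simulated data. Tables and figures were made with pandas 2.3.3, matplotlib 3.10.9 and NumPy 2.4.6 under Python 3.11.15. The labels say that libraries are separate mice and give no batch.

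The gene group under study, its members and the other lists were chosen with earlier results of these data known, although the rule for members reads gene names and no measured value. Values are given for called members without overlap and at least 5 FPKM in the higher group (up to 10 each way), for members called against Control in LPS+XJDHT hearts, for the 5 smallest p of LPS+XJDHT against LPS, for a panel of well-known members, and for up to 4 genes per other list. Hspb3, Hspa4, Hspa13, Hspb9, Dnajc5, Dnajc7, Dnajc27, Dnajc28 and Lonp1 fall outside that rule and were chosen after their values were seen. Alternatives were 2 other pseudocounts, 2 other filters, median-ratio scaling, sample quality weights, a fit of 2 groups alone, sums over every annotated transcript in the files of Control and LPS, limma-voom on recovered fragments, and leaving out each library.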

Additional observations from a re-analysis of the deposited data

Results flagged for a closer look

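In 8 of the 129 groups of 4 libraries examined (43 named members in 3 groups), 1 library lay apart from the other 3 by more than Dixon's 95% limit for the gap over the range; chance alone flags about 1 group in 20. In LPS+XJDHT hearts Bag3 was at 79.28 FPKM in replicate 3, against 115.0 to 118.3 FPKM in the others. Hspe1 was at 66.93 FPKM in that same replicate 3, against 70.72 to 71.44 FPKM. Dnajc13 was at 3.535 FPKM in LPS+XJDHT replicate 2, against 1.29 to 1.546 FPKM, and Dnajc8 was at 51.69 FPKM in LPS+XJDHT replicate 1, against 29.63 to 31.44 FPKM.

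In LPS hearts both cases were replicate 2: Hspa4l was at 2.169 FPKM there, against 4.565 to 4.716 FPKM in the others, and Hspb2 was at 95.3 FPKM, against 64.02 to 65.85 FPKM. In Control hearts Dnajb5 was at 33.72 FPKM in replicate 4, against 11.01 to 13.3 FPKM, and Hspa1a was at 10.66 FPKM in replicate 1, against 1.915 to 3.401 FPKM. No cause of these values was tested.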

How the results depend on the processing

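Counts of members called in LPS against Control (23 in all) lay between 19 and 24 when 1 library was left out, with 12 to 14 higher and 7 to 10 lower; median-ratio scaling gave 8 higher and 16 lower. In LPS+XJDHT against LPS 0 members were called under every alternative run, and the other chaperone lists had 0 calls, or 1 without LPS+XJDHT replicate 1 (0 to 1 over single libraries left out). In LPS+XJDHT against Control leaving out 1 library gave 17 to 25 members, 9 to 18 of them higher and 5 to 10 lower, and median-ratio scaling gave 6 higher and 18 lower. Bag1 reversed sign there under median-ratio scaling, with a log2 fold change of -0.23 (limma, adjusted p = 0.031). The cause of these differences was not tested.

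Over the 43 named members, 896 values under alternatives were computed for LPS against Control, of which 29 lost and 10 gained a call; for LPS+XJDHT against LPS 853 of 853 kept theirs, and for LPS+XJDHT against Control 70 of 853 lost and 15 gained one. No paired analysis was possible because replicate numbers only follow the order of the samples. With 4 hearts a group, low members and those with a wide spread, such as Hspd1 and Hspa13, have broad intervals.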
